A study of Mus musculus with 2 samples.

Results

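The 5 genes Mir675, Mir483, Mir335, Mir296 and Mir298 encode microRNAs (miRNAs) that lie in or beside imprinted mouse genes. They were chosen by symbol, from their position at H19, Igf2, Mest and the Gnas locus, and make up 5 of the 2202 miRNA genes counted in each file. Short RNAs were sequenced from gastrocnemius, the large mixed muscle of the calf, of adult female B6CASTF1/J mice aged 18 to 20 months. This strain is the first-generation hybrid of C57BL/6J and CAST/EiJ, so that every cell carries an allele of each parent strain, but the counts used here add both alleles together. The series has 1 group with no treatment and no contrasting genotype, made of 2 libraries, biological replicates 2 and 1 by their labels. They name the same donor record but separate tissue records, so the spread between them may be technical.

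Imprinted genes are transcribed mainly from the allele of a given parent, through DNA methylation set in the germ line. H19, a long noncoding RNA, comes from the maternal allele, and its neighbour Igf2, which encodes a fetal growth factor, comes from the paternal allele. Mest, a mesoderm gene, is paternally expressed, as is Nespas, the antisense RNA of the Gnas locus, which encodes a stimulatory G protein subunit. H19, Igf2 and Mest are known for high expression in fetal tissue, muscle included. For Igf2 and Mest a decline after birth is also known. The counts used here cover miRNA genes only, not the RNA of these host genes. A miRNA is cut from a hairpin precursor into a 5p and a 3p arm, and bases 2 to 8 of an arm, its seed, direct it to target RNAs.

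The mature arms are shown because each of these genes has its own sequence, so that its reads can be told from those of other miRNAs. They are from RefSeq (GRCm38.p6, the assembly also called mm10), written 5′ to 3′ with the seed in capitals.
mmu-miR-335-5p: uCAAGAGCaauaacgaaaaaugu
mmu-miR-335-3p: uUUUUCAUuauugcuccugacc
mmu-miR-483-5p: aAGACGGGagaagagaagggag
mmu-miR-483-3p: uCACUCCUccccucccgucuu
mmu-miR-298-5p: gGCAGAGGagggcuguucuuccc
mmu-miR-298-3p: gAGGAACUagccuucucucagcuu
mmu-miR-296-5p: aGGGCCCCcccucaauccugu
mmu-miR-296-3p: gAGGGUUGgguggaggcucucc
mmu-miR-675-5p: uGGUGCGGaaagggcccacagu
mmu-miR-675-3p: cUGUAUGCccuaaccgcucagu

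All 5 hairpins of the RefSeq table have the coordinates that the annotation gives the counted genes. The 10 arms had 10 different seeds, and none of these seeds occurred in an arm of another gene among the 1738 mature sequences of the table. No member shared a run of more than 12 bases with any of the other hairpins of the table, which is shorter than any mature arm listed above; matches elsewhere in the genome were not examined. Base composition set Mir335 apart from the others. Its arms held 30.4% (5p) and 36.4% (3p) G and C, against a median of 52.2% over all mature sequences, while the arms of the other 4 genes held between 50% and 68.2%. The files count reads per hairpin gene, so no value here separates the arms.

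The genes sit at 3 places in the genome (mm10, 1-based coordinates). Mir675 (ENSMUSG00000076275.1, chromosome 7, 142577064 to 142577147, minus strand) lies within H19, in an exon of 3 of the 4 H19 transcripts that span it. Mir483 (ENSMUSG00000070140.1, chromosome 7, 142654924 to 142654996, minus strand) lies in an intron of Igf2, 77.8 kb from Mir675. Mir335 (ENSMUSG00000065501.1, chromosome 6, 30741299 to 30741396, plus strand) lies in an intron of Mest. Mir296 (ENSMUSG00000065521.1, chromosome 2, 174267047 to 174267125) and Mir298 (ENSMUSG00000065410.1, chromosome 2, 174267504 to 174267585) lie on the minus strand, 378 bases apart. The annotation places neither of the pair inside another gene. Mir298 lies 13.7 kb from the nearer end of Nespas, which runs on the same strand and toward it. It lies 16.7 kb from Gnas, which runs on the other strand.

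Depth limits what can be said of such genes. Sense counts over all miRNA genes came to 2177048 in replicate 2 and 865419 in replicate 1, and levels are given as sense counts per 1000000 of these (CPM). Reads that mapped to several places enter no gene count; they were 71.0% of the reads of replicate 2 and 80.7% of those of replicate 1. As a check of the tissue, all 6 striated muscle miRNA genes were detected, and they took 10.4% of gene counts for replicate 2 and 4.07% for replicate 1. Nearly all of this was Mir206, with 103232 CPM (replicate 2) and 40388 CPM (replicate 1). Mir1a-2 followed with 162 CPM (replicate 2) and 270 CPM (replicate 1). The Mir1a and Mir133a genes come in copies, whose shared reads enter no gene count. The same holds for the 6 neural genes, copies of Mir9 and Mir124. Of these, Mir9-3 had 3 counts in replicate 2 and 1 in replicate 1, Mir9-1 had 2 in replicate 2 and 0 in replicate 1, and the other 4 had none, which says little of the tissue. Intervals are exact 95% intervals for counting error only, and errors after ± are SD over the 2 libraries.

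Mir335 was by far the most abundant of the 5 genes, followed by Mir483, then by Mir298 and Mir296 near each other, and last by Mir675. Together they had 1325 sense counts in replicate 2 and 615 in replicate 1, which is 0.0609% of gene counts for replicate 2 (interval 0.0576 to 0.0642) and 0.0711% for replicate 1 (0.0656 to 0.0769). Mir335 alone gave 67.6% of these counts in replicate 2 and 75.1% in replicate 1.

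Mir335, studied in mesenchymal and muscle precursor cells, had 896 sense counts in replicate 2 and 462 in replicate 1. These are 412 CPM (interval 385 to 439) and 534 CPM (486 to 585), a mean of 473 ± 86.5 CPM. Replicate 2 was the lower, and the intervals do not overlap. By mean level Mir335 ranked 83 among the 2202 genes, 5.89 times the median of the 305 genes that averaged at least 10 counts (80.2 CPM).

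Mir483, known in rats for limiting the differentiation of fat cells, had 290 sense counts in replicate 2 and 95 in replicate 1. Its level was 133 CPM (118 to 149) and 110 CPM (88.8 to 134), a mean of 121 ± 16.6 CPM and rank 141. Here replicate 2 was the higher, with overlapping intervals. Mir483 was thus also above the median tested gene, and it was the only other member to be so.

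The Gnas-locus pair stood lower. Mir298, for which the Alzheimer protease gene Bace1 is a known target in mouse, had 77 sense counts in replicate 2 and 25 in replicate 1, or 35.4 CPM (27.9 to 44.2) and 28.9 CPM (18.7 to 42.6). Mir296, described as angiogenic in human endothelium, had 49 sense counts in replicate 2 and 27 in replicate 1, or 22.5 CPM (16.7 to 29.8) in replicate 2 and 31.2 CPM (20.6 to 45.4) in replicate 1. Mir298 was thus the higher of the pair in replicate 2 and the lower in replicate 1. Their means were 32.1 ± 4.58 CPM for Mir298 (rank 205) and 26.9 ± 6.15 CPM for Mir296 (rank 220), which do not differ beyond the spread.

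Mir675, the product of H19, known in mouse myoblasts for promoting differentiation, was the least abundant. It had 13 sense counts in replicate 2 (interval 6.92 to 22.2) and 6 in replicate 1 (2.20 to 13.1), or 5.97 CPM (3.18 to 10.2) and 6.93 CPM (2.54 to 15.1). Its mean of 6.45 ± 0.68 CPM put it at rank 303. Both measured counts were above the limit that a count of 0 allows, 3 counts, which is 1.38 CPM in replicate 2 and 3.47 CPM in replicate 1. The interval of replicate 1, however, reaches below this limit. In both, the interval of Mir675 lay below that of every other member. The order Mir335, Mir483, Gnas-locus pair, Mir675 held in each library, and only the order within the pair differed between them.

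**Figure D1:**
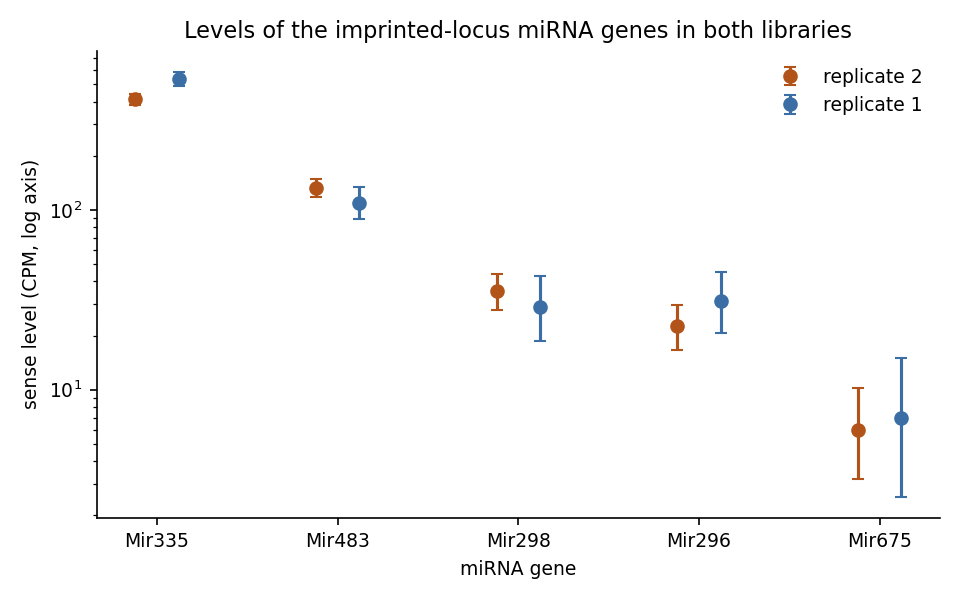
Sense level of each gene in CPM on a log axis, replicate 2 left of replicate 1, with exact 95% counting intervals as bars. Mir335 stands at 412 and 534 CPM, Mir675 at 5.97 and 6.93 CPM, and the intervals of Mir298 and Mir296 overlap.

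**Figure D2:**
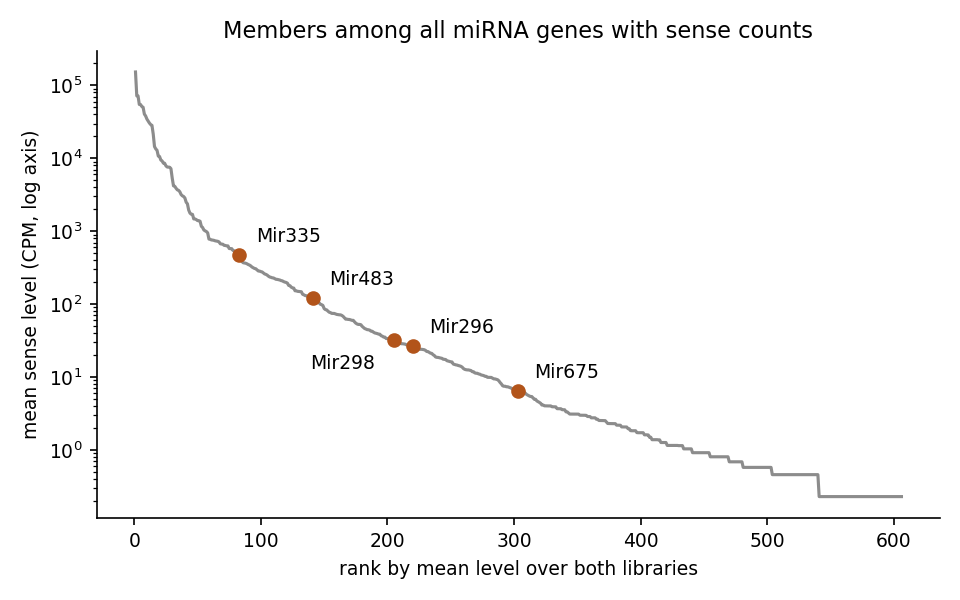
Mean sense level over both libraries (CPM, log axis) of every miRNA gene with a sense count, ordered by rank, with the 5 genes as points. They run from rank 83 for Mir335 to rank 303 for Mir675, on the falling part of the curve.

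Ratios within a library do not depend on how libraries are scaled. Mir483 exceeded Mir675, its neighbour at the H19 and Igf2 domain, by 22.3 to 1 in replicate 2 (interval 12.8 to 42.4) and 15.8 to 1 in replicate 1 (7.01 to 44.2). Mir335 exceeded Mir483 by 3.09 to 1 in replicate 2 (2.70 to 3.54) and 4.86 to 1 in replicate 1 (3.89 to 6.13). Of the 10 pairs of members, this was the only one whose intervals did not overlap between the libraries. Mir298 stood to Mir296 as 1.57 to 1 in replicate 2 (1.08 to 2.30) and 0.926 to 1 in replicate 1 (0.515 to 1.66). The intervals of this pair overlap each other, and only that of replicate 1 includes equal levels.

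The genes nearest to each member in level, by Euclidean distance of log2(CPM + 1) over the 2 libraries, give a scale for these numbers. Nearest to Mir335 was Mir350, which had 417 CPM (replicate 2) and 581 CPM (replicate 1), followed by Mir146 and Mir664. Nearest to Mir483 were Mir129-1, Mir15b and Mir152, and nearest to Mir298 were Mir18, Mir182 and Mir503. Mir192, with 22.0 CPM (replicate 2) and 32.4 CPM (replicate 1), was nearest to Mir296, followed by Mir365-2 and Mir183. With 2 libraries, this likeness is one of level alone. The miRNA genes next to these on their chromosomes had few or no counts, with the exception of Mir29a. That gene, 321 kb from Mir335, had 14792 CPM (replicate 2) and 14193 CPM (replicate 1). Mir183, on the other side of Mir335 at 572 kb, had 24.8 CPM (replicate 2) and 27.7 CPM (replicate 1). Around the other members, Gm27591, Mir7005 and Mir3104 had no count in either library, and Mir7064 had 0 counts in replicate 2 and 1 in replicate 1.

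Between the libraries, the measured ratio of each of these genes was less than 2-fold in either direction. The intervals of Mir675, Mir296 and Mir298, given below, do reach a 2-fold ratio. The sense counts of each gene, given the library totals, went into an exact conditional binomial test (two-sided), and p-values were adjusted by Benjamini-Hochberg over the 305 genes that averaged at least 10 counts. Calls required a ratio of 2 or more in either direction, at an adjusted p under 0.05. The test sets these 2 libraries against each other and against counting error, not animals or conditions. Of the 305 genes, 103 were called, or 33.8%. Of the 5 members, 4 were tested and 0 were called; Mir675, with a mean of 9.5 counts, was below the filter.

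With library totals, Mir335 was the only member whose difference exceeded counting error at an adjusted p below 0.05. The ratio of replicate 2 over replicate 1 was 0.771, or -0.38 on the log2 scale, with an exact interval from 0.688 to 0.864 and an adjusted p of 1.81e-05. Without a ratio threshold 67.9% of tested genes had an adjusted p under 0.05, so such a difference was common at this depth. Mir483 had a ratio of 1.21 (0.959 to 1.55, adjusted p = 0.155 by the exact test) and Mir298 of 1.22 (0.771 to 2.01, adjusted p = 0.507 by the exact test). Mir296 had a ratio of 0.721 (0.442 to 1.20, adjusted p = 0.257 by the exact test). The untested Mir675 had a ratio of 0.861, with an interval from 0.305 to 2.76 that leaves a 2-fold difference in either direction within counting error.

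All tested genes together leaned to replicate 2, with a median log2 ratio of 0.43. The filter works on raw counts and replicate 2 is deeper, so genes low in replicate 1 pass it more easily than genes low in replicate 2. Mir346, with 29 counts in replicate 2 and 0 in replicate 1, was tested, but Gm24270, with 6 and 13, was not. The part of the filter in this lean, or in that of any list, was not tested. Every member lay below the median gene. The gap was 0.81 on the log2 scale for Mir335, 0.91 for Mir296, 0.16 for Mir483 and 0.14 for Mir298. Among tested genes Mir335 stood at percentile 19.3 and Mir296 at 18.0, Mir483 at 42.6 and Mir298 at 43.0. TMM scaling lowered every log2 ratio by 0.28 and DESeq2 size factors by 0.42. The share of called genes that were higher in replicate 2, 79.6% with library totals, was 67.3% with TMM and 59.8% with DESeq2 size factors. No tested member was called with either, against 32.1% of tested genes with TMM and 31.8% with DESeq2 size factors. With DESeq2 size factors the log2 ratios were -0.79 for Mir335 and -0.89 for Mir296. The adjusted p of Mir296 by the exact test was then 0.0236, and 0.0521 with TMM, at a log2 ratio of -0.75. The log2 ratios of Mir483 and Mir298 turned negative with DESeq2 size factors, at -0.14 and -0.13. With TMM, Mir483 also turned negative, at -0.0034. Markers of several cell types differed between the libraries as well. Smooth muscle markers (2 of 2 detected) held 3.799% of gene counts in replicate 2, against 7.54% for replicate 1. The slow fibre genes Mir208b and Mir499 held 0.0956% in replicate 2, against 0.0181% for replicate 1, and the liver gene Mir122 held 0.00951% in replicate 2, against 0.00104%. The 4 fibroblast genes summed to 0.138% in replicate 2, against 0.0633% for replicate 1. That sum was nearly all Mir214, at 1335 CPM (replicate 2) and 564 CPM (replicate 1), while Mir199a-1, Mir199a-2 and Mir199b had less in replicate 2. As with the Mir1a genes, reads shared between the Mir199 genes enter no gene count. The endothelial gene Mir126a held 5.30% in replicate 2, against 4.73% for replicate 1, and 4 leukocyte genes 0.408%, against 0.362%. Of the leukocyte genes, Mir155 and Mir150 had more in replicate 2, but Mir142 and Mir223 had less. Mir142 had 96.0 CPM (replicate 2) and 246 CPM (replicate 1), and Mir223 had 123 CPM (replicate 2) and 278 CPM (replicate 1). The erythroid genes held 0.0316% in replicate 2, against 0.0230% for replicate 1, and the epithelial genes 0.0270%, against 0.0342%. Of the epithelial genes only Mir203 had less in replicate 2, at 130 CPM (replicate 2) and 318 CPM (replicate 1). Mir200a, Mir200b, Mir200c, Mir141, Mir429 and Mir205 had more in replicate 2. The part of any of these in the ratios of the 5 genes was not tested.

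Other imprinted miRNA genes give a frame for these ratios. Between Dlk1 and Dio3 on chromosome 12, where miRNAs are maternally expressed, 40 of 67 genes were tested. Calls toward replicate 2 numbered 29, where the share over all tested genes was 26.9%, and calls toward replicate 1 numbered 0, where it was 6.89%. Their median log2 ratio was 1.67, against -0.05 for the 4 tested members and 0.43 for all tested genes. The 3 most abundant, however, differed among themselves: Mir127 had a ratio of 3.29 (3.03 to 3.59), Mir411 of 1.32 (1.19 to 1.46) and Mir379 of 0.710 (0.615 to 0.821). In the paternally expressed Sfmbt2 cluster on chromosome 2, 5 of 119 genes were tested, with a median log2 ratio of -0.13 and 1 call, higher in replicate 2. Its most abundant genes were Mir467d, Mir467e and Mir669c. Mir184, near the paternally expressed Rasgrf1, had 190 CPM (replicate 2) and 293 CPM (replicate 1), a ratio of 0.648 (0.553 to 0.760), and was not called. These differences between lists were not tested. In summed level, the Dlk1-Dio3 genes reached 6610 CPM in replicate 2 and 2677 CPM in replicate 1, and the Sfmbt2 genes 321 CPM in replicate 2 and 312 CPM in replicate 1. The 5 members summed to 609 CPM in replicate 2 and 711 CPM in replicate 1, between these clusters in counted reads. Of the 119 Sfmbt2 genes, only 11 had counts. Reads shared between similar genes enter no gene count, so the sum of that cluster may be too low.

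**Figure D3:**
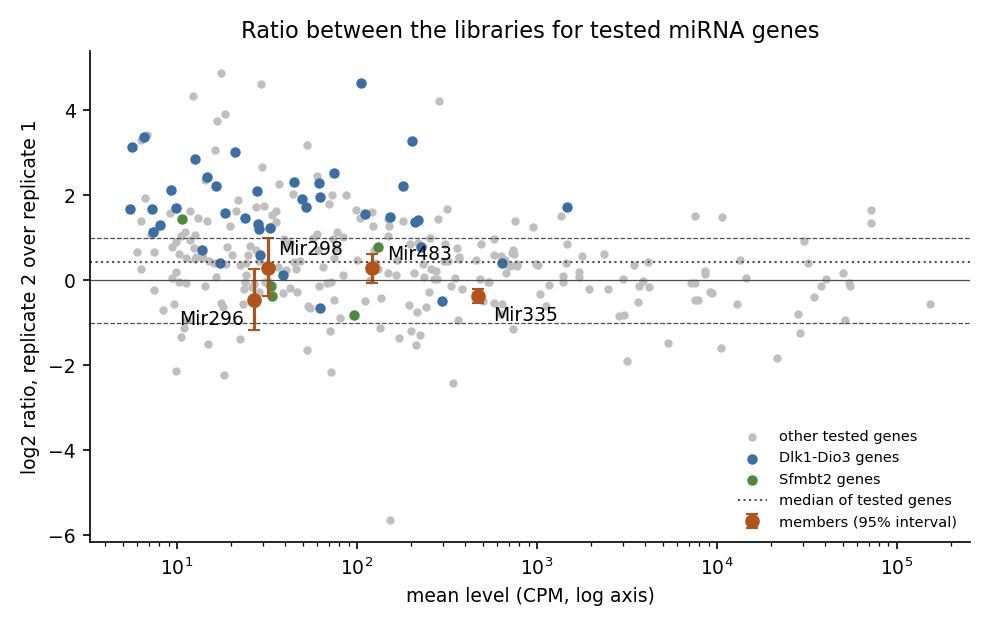
Log2 ratio of replicate 2 over replicate 1 against mean level (CPM, log axis) for the 305 tested genes, with exact 95% intervals on the 4 tested members. The points of the members lie between -0.47 and 0.29, inside the dashed lines at a 2-fold ratio and below the dotted median of 0.43, while most Dlk1-Dio3 genes lie above it.

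Reads on the strand opposite to the gene separated Mir675 from the other members. Mir675 had 12 antisense counts beside 13 sense counts in replicate 2, and 7 beside 6 in replicate 1. The antisense share was 48% in replicate 2 (interval 27.8 to 68.7) and 53.8% in replicate 1 (25.1 to 80.8), and 19 of 38 reads over both. Mir335, Mir483, Mir298 and Mir296 had 0 antisense counts in both libraries. With 3 counts as the limit of a count of 0, the antisense share of Mir335 is at most 0.335% in replicate 2 and 0.649% in replicate 1. For Mir483 it is at most 1.03% in replicate 2 and 3.16% in replicate 1. The limits for Mir298 are 3.90% in replicate 2 and 12% in replicate 1, and for Mir296 they are 6.12% in replicate 2 and 11.1% in replicate 1. Exact intervals are somewhat wider. Their lower ends for the sense share are 99.6% (replicate 2) and 99.2% (replicate 1) for Mir335, and 95.3% and 86.3% for Mir298.

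Antisense counts were otherwise almost all at loci where miRNA genes face each other. There, at 64 genes, a sense read of the partner is an antisense read of the gene, and these took 450528 antisense counts in replicate 2 and 221370 in replicate 1. The other 2138 genes, all 5 members among them, had 52 antisense counts in replicate 2 and 21 in replicate 1. That is 0.00301% of their reads for replicate 2 and 0.00326% for replicate 1. This pooled share is weighted to genes with many reads, and some genes with few reads had far higher shares. Mir200a had 5 antisense beside 13 sense counts in replicate 2 and 0 of either in replicate 1. Mir582 had 2 beside 7 in replicate 2 and 0 beside 4 in replicate 1. Mir675 held 23.1% of the antisense counts of the 2138 genes in replicate 2 (interval 12.5 to 36.8) and 33.3% in replicate 1 (14.6 to 57.0). It had more than any of the other 2137 genes in both libraries. The annotation lists no gene of any kind on the strand opposite to a member.

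The hairpin of Mir675 is shown because both strands of it were read, with the mature arms in capitals.
Mir675 hairpin: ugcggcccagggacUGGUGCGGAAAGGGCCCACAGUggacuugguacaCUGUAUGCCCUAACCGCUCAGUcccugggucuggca
The longest run of this hairpin that also occurs in its own reverse complement is 11 bases, against 10 for Mir483, 9 for Mir335, 6 for Mir298 and Mir296, and a median of 7 over 1005 hairpins. Its part in the antisense counts was not tested. In the unstranded counts, which add both strands, Mir675 had 25 reads in replicate 2 and 13 in replicate 1, of which only the sense part lies on the strand of H19.

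**Figure D4:**
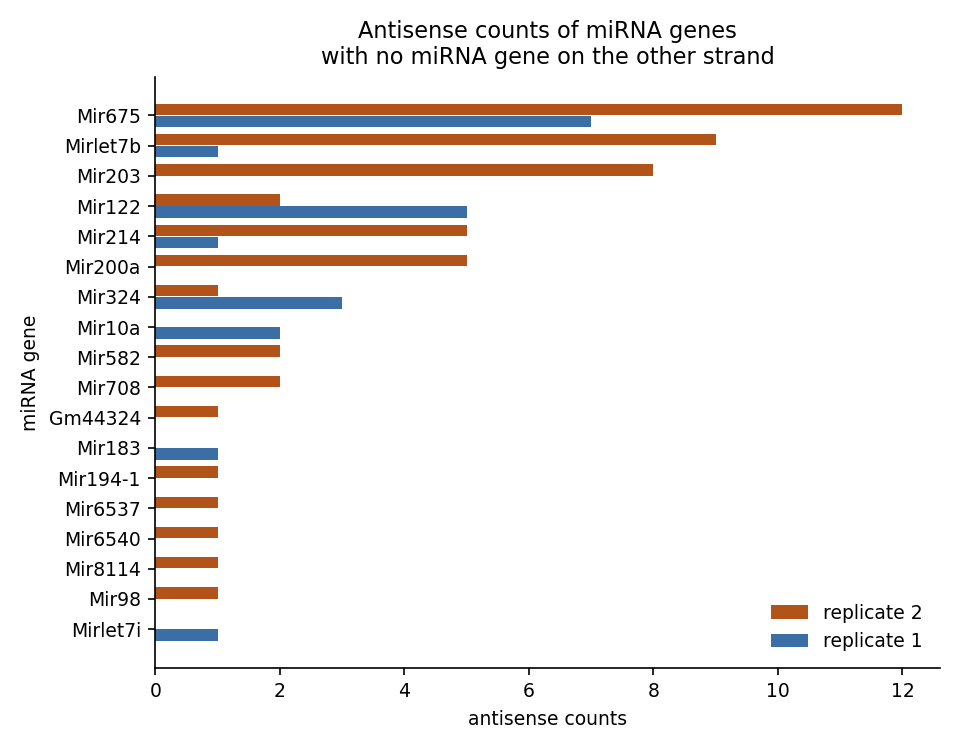
Antisense counts of the 18 miRNA genes that face no other miRNA gene and had an antisense count in either library, with replicate 2 above replicate 1 in each pair of bars. Mir675 leads with 12 and 7, and Mirlet7b, with 9 and 1, and Mir203, with 8 and 0, follow.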

How the data were processed

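Short RNA (under 30 bases, per the labels) was sequenced from 2 gastrocnemius libraries of 1 group. The deposited files hold raw read counts for each miRNA gene, without normalization, on mm10 and the annotation GENCODE M21, per the deposited README. Aligner, counter and adapter trimming: not given in the sources used here. A file has 4 tallies, which stayed out of totals and tests, then 2202 Ensembl identifiers, all matched to the annotation, with 3 columns lacking a header. From their values these are unstranded, sense and antisense counts.

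CPM values divide sense counts by the sum over miRNA genes. Shares and ratios have exact Clopper-Pearson intervals, counts exact Poisson intervals, at 95%. They cover the counting error of reads only. These reads carry no molecular identifiers, so copies of the same molecule cannot be told apart. Genes averaging at least 10 counts were tested by the exact conditional binomial test (Benjamini-Hochberg), which was tested on simulated data. Scalings used edgeR 4.0.16 and DESeq2 1.42.0 in R 4.3.3; other steps used Python 3.11.15, NumPy 2.4.6, SciPy 1.17.1 and pandas 2.3.3. Sequences are from RefSeq. Members and lists were chosen with earlier results of these data known. Named besides the members were the 3 genes nearest in level, the adjacent miRNA genes, the 3 most abundant genes per imprinted list and any gene sharing a seed. Genes in the antisense comparison were named after their values were seen. Alternatives were the unstranded column, other totals, scalings, filters and ratio thresholds, and each library alone.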

Additional observations from a re-analysis of the deposited data

Results flagged for a closer look

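The antisense counts of Mir675, 12 in replicate 2 and 7 in replicate 1, stand out because they lie outside the sense measurement and above the 3 counts that a count of 0 allows. No other member had an antisense count. Of the 18 genes with antisense counts and no facing miRNA gene, 5 had them in both libraries. Leaving Mir675 out, antisense reads made up 0.00232% of reads at the genes that face no other miRNA gene in replicate 2 and 0.00217% in replicate 1. Mirlet7b had 9 antisense counts beside 80440 sense counts in replicate 2 and 1 beside 23961 in replicate 1. Mir122, next after Mir675 in replicate 1, had 2 beside 207 in replicate 2 and 5 beside 9 in replicate 1. With 2 libraries in 1 group, single libraries far from the rest could not be sought.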

How the results depend on the processing

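Levels depended on the total they were divided by. With the unstranded column the mean levels were 618 CPM for Mir335, 158 for Mir483, 41.7 for Mir298, 35.2 for Mir296 and 17.3 for Mir675, where both strands add up. With the highest gene left out of the totals they were 561 for Mir335, 143 for Mir483, 37.8 for Mir298 and 7.64 for Mir675, and Mir296 moved by less than its SD. With multimapping reads in the total they were 77.9 for Mir335, 20.96 for Mir483, 5.55 for Mir298, 4.39 for Mir296 and 1.07 for Mir675. The order of means was the same under all 3. The levels of each library alone ranged from 5.97 to 6.93 CPM for Mir675 and from 412 to 534 CPM for Mir335. Both other scalings lower every ratio. The log2 ratio of Mir483 thereby became -0.0034 under TMM and -0.14 under DESeq2 size factors, and that of Mir298 became -0.13 under DESeq2 size factors. Asking for 100 counts on average left 50 called genes among fewer tested, and dropping the ratio threshold gave 207, against 103. Mir335 was called only without the threshold. The sense share of Mir675 was 52% in replicate 2 and 46.2% in replicate 1. Leaving out a library gives no ratio. No paired analysis was possible because there is 1 group. Depth limits Mir675 most, with 6 to 13 counts.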
